A study of Mus musculus with 15 samples.

Results

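The REG family lectins are small secreted proteins built around a single C-type lectin-like domain. The 6 genes examined here were the rows of the count files with the symbols Reg1, Reg2, Reg3a, Reg3b, Reg3g and Reg4, among 78298 genes listed. Reg3b and Reg3g encode lectins that bind the bacterial surface and keep bacteria away from the epithelium, and both are known to be induced through MyD88 and through interleukin-22 acting on STAT3. Reg1 and Reg2 are best known from the pancreas and the regenerating gut, Reg3a is a further gene of the REG3 branch, and Reg4 is known from enteroendocrine and crypt base secretory cells. Reg3d, a seventh family gene, was not among the members and is given where the genes lie side by side. The family was selected on results of these same libraries, above all the fall of Reg3a in SOX9-Halo_spheroid against Halo-NLS. Values of members in that comparison and in the others that use SOX9-Halo_spheroid are therefore given as descriptions with no p-value.

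The libraries held poly-A RNA from organoids of the mouse small intestine, 3 for each of 5 conditions, all harvested 5 days after seeding. Crypts came from female mice aged 8 to 16 weeks bred on C57BL/6J. A wild-type background is stated for the SOX9-Halo and SOX9-mEGFP organoids that received a further transgene, and that of the Halo-NLS line is not given in the sources used here. Every line carried a lentiviral transgene under the L30 promoter, which is not restricted to a cell type. Halo-NLS organoids, the control, expressed a V5-tagged HaloTag directed to the nucleus. SOX9-mEGFP_budding and SOX9-Halo_budding organoids expressed the transcription factor SOX9 fused to mEGFP or to HaloTag and kept the budding form of ordinary organoids. SOX9-mEGFP_spheroid and SOX9-Halo_spheroid came from the same lines at later passages, after they had become round, and carried in addition H2B-mScarletI and H2B-mEGFP respectively. Each line was 1 stably transduced population, and morphology, time in culture and the added histone transgene changed together, so they cannot be told apart. The replicates of a condition were harvests of that line at nearby passages, so p-values measure the spread between such harvests and not between transductions.

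Reads counted on genes ran from 28062722 to 40559766 per library. Sox9, the gene carried by the transgene, was at 9.10 to 22.9 CPM (read counts scaled to the library total) in Halo-NLS, at 193 to 339 in SOX9-mEGFP_budding, at 39.8, 314 and 204 in SOX9-Halo_budding, at 260 to 705 in SOX9-mEGFP_spheroid and at 314 to 442 in SOX9-Halo_spheroid. Replicate 1 of SOX9-Halo_budding thus stood apart with the lowest Sox9 of any SOX9 library. The Reg1 difference between the budding lines is given with and without it. Other values from SOX9-Halo_budding include it, apart from fits with a library left out. Summed CPM of 4 epithelial markers lay between 3433 and 8591 in all conditions, and that of the non-epithelial markers between 1.61 and 9.57. In SOX9-Halo_spheroid the 7 Paneth cell markers summed to 3.35 to 5.93 CPM against 1532 to 1978 in Halo-NLS, so the defining products of that cell type were almost absent. In such bulk libraries, fewer cells of a type and less RNA per cell cannot be told apart.

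Of the 6 members, 5 lie with Reg3d in 1 cluster on chromosome 6 and Reg4 lies alone on chromosome 3. On GRCm39 the cluster runs from 78347640 to 78445859, a span of 98220 bases with no annotated gene other than the 6 REG genes. Their order is Reg3b (78347640 to 78350455), Reg3d (78352857 to 78355848), Reg3a (78357692 to 78360810), Reg2 (78372606 to 78385089), Reg1 (78399694 to 78405828) and Reg3g (78443246 to 78445859). Reg3d and Reg3g are on the minus strand and the others on the plus strand. Reg4 is at 98129468 to 98144066 of chromosome 3, plus strand. Across pairs of family genes, the longest exact run shared by their longest transcripts was 35 bases, between Reg3b and Reg3g.

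Upstream sequences of Reg3b, Reg3g and Reg3a are shown because these 3 genes of the cluster did not change together in the SOX9-mEGFP line. In the SOX9-Halo line all 3 were lower in spheroids than in budding organoids. They come from the RefSeq promoter table (GRCm38.p6), in which all 6 members were found, and were placed on GRCm39 by exact match; each is a stretch of 189 bases ending 20 bases before the RefSeq start, 5′ to 3′ on the strand of the gene. The RefSeq start of Reg3b lies 228 bases inside the gene as annotated by GENCODE, so its stretch lies within the gene span given above. The RefSeq starts of Reg1 and Reg2 lie 3272 and 9532 bases inside, and those of Reg3a, Reg3g and Reg4 at most 4. Upstream here means before the RefSeq start. Capitals mark matches on either strand to 5 motifs. The STAT palindrome was searched as TTCNNNGAA. The core bound by SOX factors was searched as ACAAT. For the intestinal CDX factors the letters were TTTATG. For GATA factors they were AGATAA, and for the TATA box TATAAA, and matches of different motifs did not overlap.
Reg3b, chr6:78347660-78347848, plus strand: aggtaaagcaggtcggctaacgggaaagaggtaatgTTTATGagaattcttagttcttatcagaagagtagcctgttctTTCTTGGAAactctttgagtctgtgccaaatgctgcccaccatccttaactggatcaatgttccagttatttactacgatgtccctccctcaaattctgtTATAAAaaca
Reg3g, chr6:78445877-78446065, minus strand: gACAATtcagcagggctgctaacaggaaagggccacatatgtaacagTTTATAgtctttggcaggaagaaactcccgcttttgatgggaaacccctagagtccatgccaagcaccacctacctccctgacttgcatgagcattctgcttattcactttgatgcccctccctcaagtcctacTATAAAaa
Reg3a, chr6:78357484-78357672, plus strand: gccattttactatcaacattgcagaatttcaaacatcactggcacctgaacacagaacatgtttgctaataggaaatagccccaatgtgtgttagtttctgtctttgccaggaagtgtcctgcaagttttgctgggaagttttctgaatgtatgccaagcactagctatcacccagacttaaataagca
Reg3b held 1 STAT match, TTCTTGGAA, at bases -129 to -121, 1 CDX match at -172 to -167 and a TATA box at -29 to -24. Reg3g held the only SOX core match among the members, at -207 to -203, and TATA matches at -27 to -22 and, on the other strand, at -161 to -156. No motif of the 5 was found in the Reg3a window, which says only that these letters are not in it. In the 250 bases upstream, 1 of the 6 members held each of the STAT, SOX, CDX and GATA motifs, the last in Reg4 at -101 to -96, and 4 held a TATA match. Of the 32851 promoters in the table, 7.02% held the STAT motif, 27.7% the SOX core, 10.8% the CDX motif, 9.99% the GATA motif and 12.4% the TATA box. Reg3b and Reg3g were the most alike upstream, with 68.4% identity in a global alignment of the 250 bases, against 43.9% for Reg3a and Reg3b.

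Reg4 was the highest member in Halo-NLS organoids, the control, with 130 ± 61.7 CPM per kilobase of merged exon (SD, n = 3), the scale on which genes are compared. Reg3a (55.2 ± 31.3) and Reg1 (50.7 ± 29.6) followed, and their ranges overlapped with each other. Reg3g at 3.54 ± 1.67 and Reg3b at 1.65 ± 0.475 were lower than these 3 in all libraries, with overlapping ranges between themselves. Reg2 was at or near the limit of counting throughout. It had 0 to 3 counts in every library, did not pass the filter on low counts, and was not tested; a count of 0 allows up to 3 counts, or 0.0696 to 0.117 CPM depending on the library. The other 5 members were tested among 17560 genes.

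The order of the members differed by condition. SOX9-mEGFP_budding kept Reg4 on top at 73.5 ± 17.0 CPM per kilobase, followed by Reg3g (30.2 ± 25.1) and Reg3a (28.2 ± 26.4), whose ranges overlapped. SOX9-Halo_budding had Reg1 first at 137 ± 84.5, then Reg3a (55.1 ± 36.2), Reg3g (39.2 ± 13.4), Reg4 (38.9 ± 24.3) and Reg3b (25.3 ± 13.5), and each of these overlapped with the next. The order of Reg3g and Reg4 there turned with longest transcripts as lengths or with RLE scaling. SOX9-mEGFP_spheroid was led by Reg3g at 51.8 ± 13.0 CPM per kilobase, with Reg1 next at 2.88 ± 0.449 and no overlap between them. SOX9-Halo_spheroid had Reg3g on top as well, but at 0.343 ± 0.0613.

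**Figure D1:**
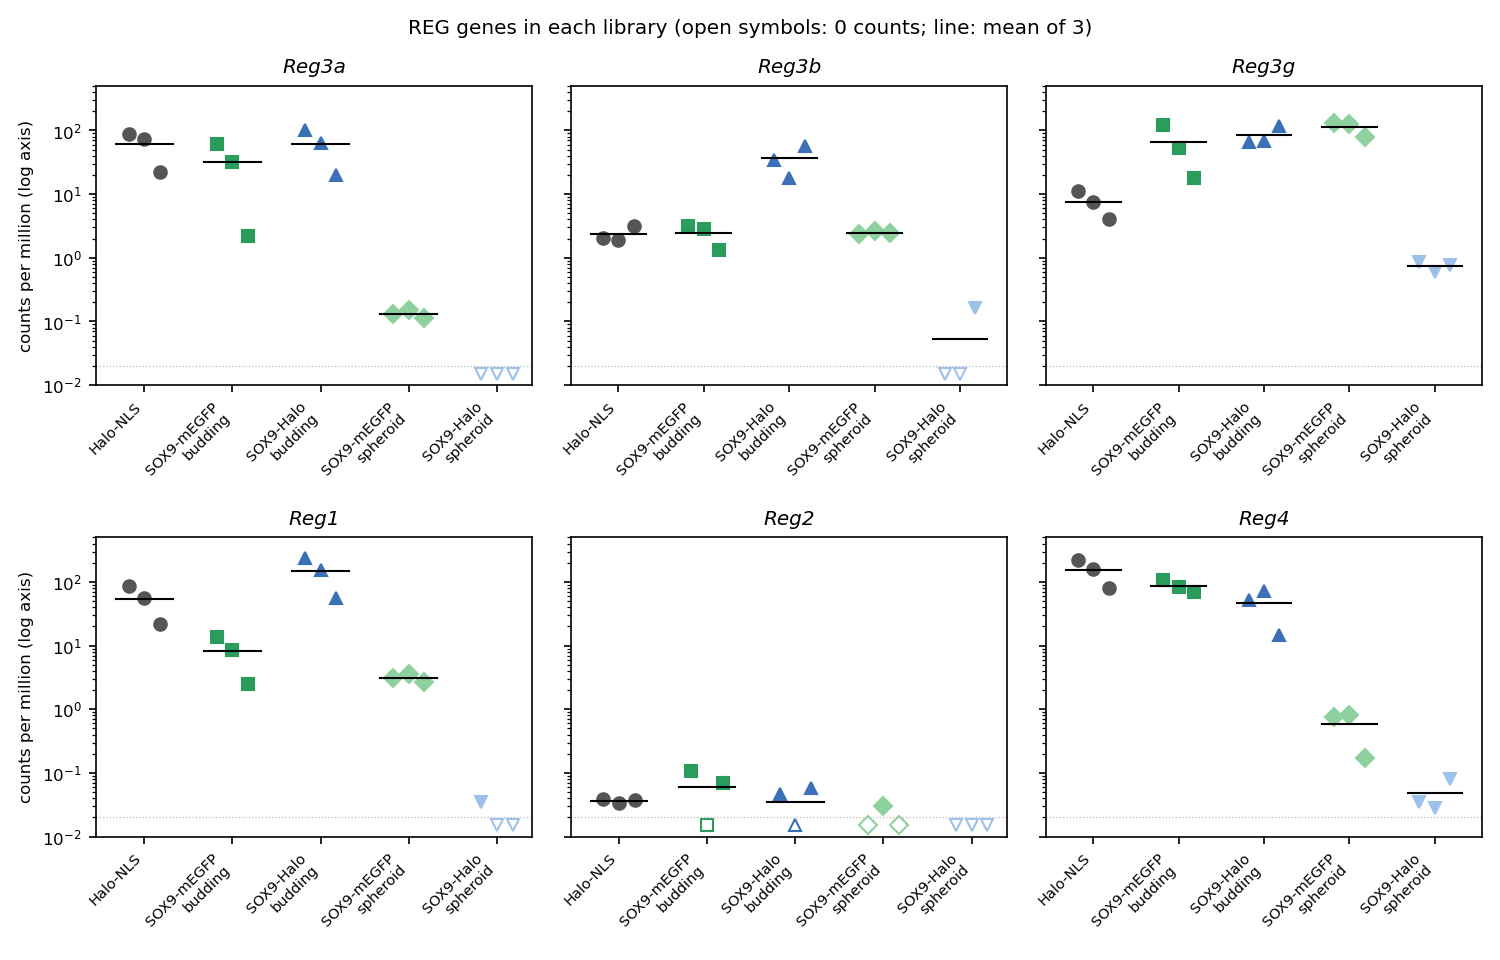
CPM of the 6 members in each of 15 libraries, 3 per condition, on a log axis; points are libraries, black lines are means of 3, and open symbols at the bottom are libraries with 0 counts. Reg3g is at 79.5 to 130 CPM in SOX9-mEGFP_spheroid, while Reg3a and Reg4 are below 1 CPM there, and every member is below 1 CPM in SOX9-Halo_spheroid.

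In budding organoids with SOX9 the question is how the family stood before the change in form. Reg3g was higher in both SOX9 lines than in Halo-NLS, and Reg3b was higher in the SOX9-Halo line. A gene was called when its adjusted p did not exceed 0.01, it moved by 1 or more on the log2 scale and its normalized count averaged 10 or more. Reg3g, 1 of the 5 tested members, was called higher in SOX9-mEGFP_budding against Halo-NLS, where 1.99% of all genes tested were called higher and 0.763% lower. In SOX9-Halo_budding against Halo-NLS, Reg3g and Reg3b were called higher, with 2.49% of all genes called higher and 1.26% lower. Both comparisons use the same 3 control libraries. Those libraries also entered the comparison that chose the family, so p-values of members against Halo-NLS are not independent of that choice.

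Reg3g, the bactericidal lectin of enterocytes and Paneth cells, was at 11.2, 7.59 and 4.05 CPM in Halo-NLS. It was at 124, 53.4 and 17.7 CPM in SOX9-mEGFP_budding and at 66.4, 68.9 and 118 CPM in SOX9-Halo_budding. All 6 budding SOX9 libraries were above all 3 controls, although SOX9-mEGFP_budding spanned a wide range. The log2 fold change was 3.09 (SE 0.56, adjusted p = 0.0038) in SOX9-mEGFP_budding and 3.47 (SE 0.57, adjusted p = 0.002) in SOX9-Halo_budding. Neither call survived the removal of Halo-NLS replicate 2 (adjusted p = 0.021 and 0.013) or of Halo-NLS replicate 3 (0.022 and 0.012). The first was also lost without SOX9-mEGFP_budding replicate 1 (log2 fold change 2.23, adjusted p = 0.014), and the second without SOX9-Halo_budding replicate 3 (3.15, adjusted p = 0.011). The direction was the same in each of these. In fits restricted to the 6 libraries of each comparison neither was called (adjusted p = 0.047 and 0.017).

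Reg3b, the closest neighbour of Reg3g by upstream sequence, separated the lines. Its CPM was 2.03, 1.91 and 3.15 in Halo-NLS and 3.11, 2.88 and 1.32 in SOX9-mEGFP_budding, which overlapped. SOX9-Halo_budding libraries were at 34.6, 17.8 and 56.6 CPM, above every library of the other conditions. Against Halo-NLS the log2 fold change was 3.94 (SE 0.56, adjusted p = 0.00086) in SOX9-Halo_budding and 0.038 (SE 0.52, adjusted p = 0.97) in SOX9-mEGFP_budding. With just those 6 libraries in the model, the former was 3.96 and was not called (adjusted p = 0.015). The direct comparison of SOX9-Halo_budding with SOX9-mEGFP_budding gave 3.90 (SE 0.55, adjusted p = 0.0018). Without SOX9-mEGFP_budding replicate 2 it was 4.07 and was not called (adjusted p = 0.015).

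Reg1 differed between the lines in the same direction. SOX9-Halo_budding libraries were at 238, 152 and 55.6 CPM and SOX9-mEGFP_budding libraries at 13.8, 8.69 and 2.48 CPM, with Halo-NLS between them at 86.2, 56.2 and 22.2 CPM. The 3 SOX9-mEGFP_budding libraries were below all controls, whereas SOX9-Halo_budding overlapped with the controls. The log2 fold change between the lines was 4.16 (SE 0.66, adjusted p = 0.0045). Against Halo-NLS, the change in SOX9-mEGFP_budding was -2.73 (SE 0.62) and missed the call in the edgeR fit (adjusted p = 0.014). It was called with DESeq2 (adjusted p = 0.00036) and with replicate number as a block in the edgeR fit (-2.80, adjusted p = 0.00032). Replicate number did not meet the rule for pairing SOX9-mEGFP_budding with Halo-NLS, so the blocked call is not relied on. The change in SOX9-Halo_budding was 1.44 (SE 0.59, adjusted p = 0.093). Without SOX9-Halo_budding replicate 1, the library with the lowest Sox9 and the highest Reg1, the difference between the lines was 3.65 and was no longer called (adjusted p = 0.02), while Reg3b stayed called. The call of Reg1 was also lost without SOX9-mEGFP_budding replicate 2 (4.21, adjusted p = 0.035) or replicate 3 (3.71, adjusted p = 0.014).

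Few genes differed between the lines at the budding stage. Reg1 and Reg3b were called higher in SOX9-Halo_budding against SOX9-mEGFP_budding, a comparison in which 0.29% of all genes were called higher and 0.165% lower. Reg3g (0.38, SE 0.51), Reg3a (0.97, SE 0.84) and Reg4 (-0.92, SE 0.51) were not called, at adjusted p of 1, 1 and 0.76. In a fit restricted to the 6 libraries of this comparison, neither Reg1 (adjusted p = 0.097) nor Reg3b (0.028) was called.

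Reg3a and Reg4 were not called in either budding comparison with the control. Reg3a was at 89.5, 74.6 and 22.3 CPM in Halo-NLS, at 61.5, 31.4 and 2.18 CPM in SOX9-mEGFP_budding and at 101, 64.5 and 20.1 CPM in SOX9-Halo_budding. Replicate 3 was the lowest of its condition for Reg3a and for Reg1 in all 3 budding conditions, and the condition ranges overlapped for Reg3a. Reg4 was at 225, 158 and 79.2 CPM in Halo-NLS, at 109, 83.0 and 68.9 CPM in SOX9-mEGFP_budding and at 51.8, 71.4 and 14.9 CPM in SOX9-Halo_budding. All SOX9-Halo_budding libraries were below all controls for Reg4, with a log2 fold change of -1.74 (SE 0.52, adjusted p = 0.032) that missed the threshold. With replicate number as a block in the edgeR fit it was -1.84 and was called (adjusted p = 0.0049). Replicate number did not meet the rule for pairing SOX9-Halo_budding with Halo-NLS, so that call is not relied on. The summed enterocyte and enteroendocrine markers were also lowest in replicate 3 of each budding condition, with enterocyte sums of 6484, 1928 and 4247 CPM in Halo-NLS, SOX9-mEGFP_budding and SOX9-Halo_budding. Their part in the Reg3a and Reg1 values was not tested.

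**Figure D2:**
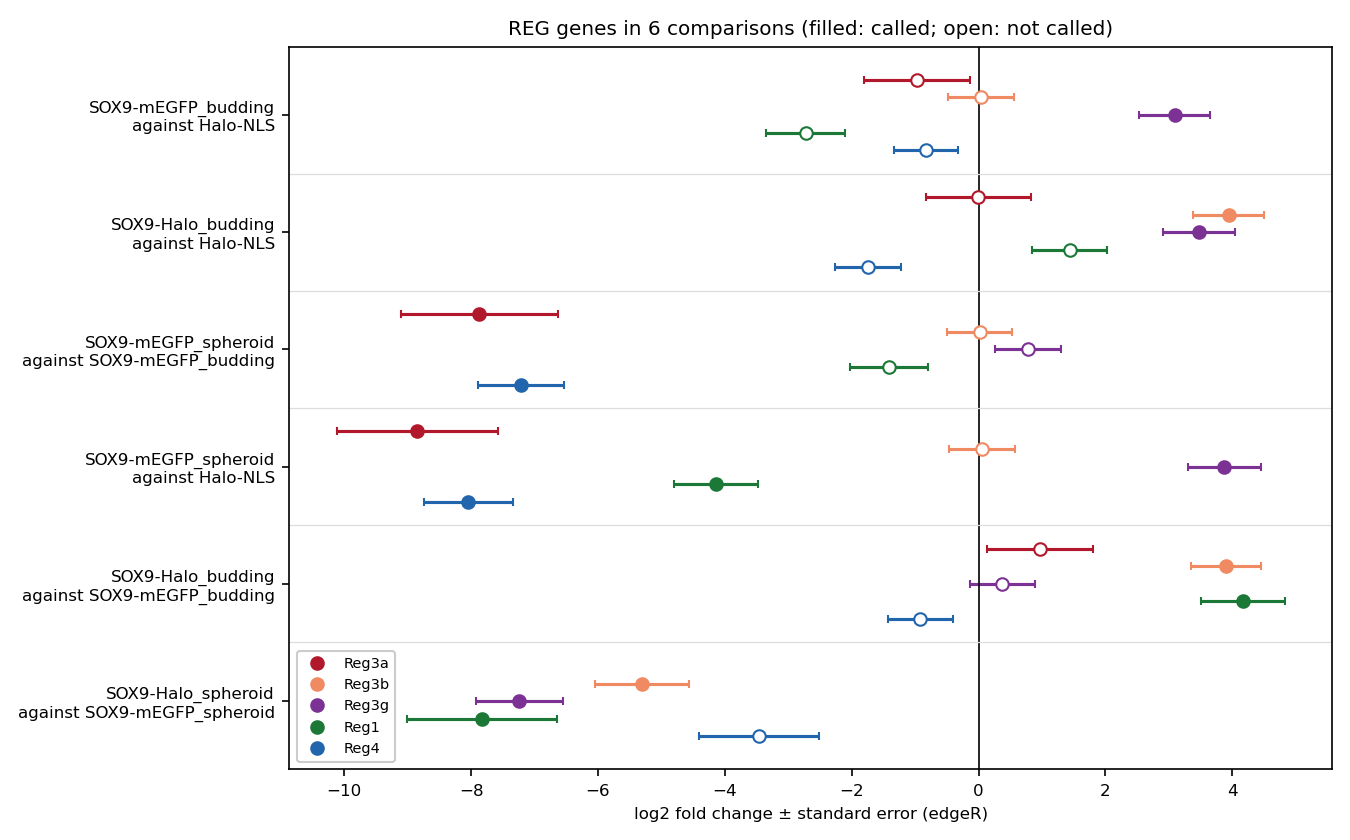
Log2 fold change with its standard error for the tested members in 6 comparisons, from 1 edgeR fit of 15 libraries. Filled points were called and open points were not. The fill is no test of a member in SOX9-Halo_spheroid against SOX9-mEGFP_spheroid, since the family was selected on SOX9-Halo_spheroid. Reg3a is left out of SOX9-Halo_spheroid against SOX9-mEGFP_spheroid, where its mean was 0; Reg3g and Reg3b lie near 3.5 and 3.9 in SOX9-Halo_budding against Halo-NLS, and Reg3a and Reg4 lie below -7 in SOX9-mEGFP_spheroid against SOX9-mEGFP_budding.

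The change from budding to spheroid within a line split the family in the SOX9-mEGFP line. Reg4 and Reg3a were called lower in SOX9-mEGFP_spheroid against SOX9-mEGFP_budding, while Reg3g, Reg3b and Reg1 were not called. Of all genes tested, 7.88% were called lower in this comparison and 8.53% higher. Reg4 was at 0.767, 0.806 and 0.170 CPM in SOX9-mEGFP_spheroid, from 29, 27 and 6 counts, and fell by 7.21 on the log2 scale (SE 0.68, adjusted p = 1.9e-06). Reg3a was at 0.132, 0.149 and 0.114 CPM, from 5, 5 and 4 counts, and fell by 7.87 on the log2 scale (SE 1.24, adjusted p = 0.00033). For both genes the spheroid and budding ranges did not overlap.

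Reg3g in SOX9-mEGFP_spheroid was at 130, 125 and 79.5 CPM, which overlapped the 17.7 to 124 CPM of the budding libraries of the line, and its log2 fold change was 0.78 (SE 0.51, adjusted p = 0.31). Reg3b was at 2.33, 2.60 and 2.44 CPM, a log2 fold change of 0.018 (SE 0.51, adjusted p = 0.99) against a spread of 1.32 to 3.11 CPM in budding. Reg1 was at 3.09, 3.61 and 2.64 CPM, with a log2 fold change of -1.41 (SE 0.61, adjusted p = 0.1). A p above the threshold does not show that these 3 did not change. The 7 enteroendocrine markers, products of a cell type in which Reg4 is known to be made, summed to 1.11 to 3.49 CPM in SOX9-mEGFP_spheroid against 399 to 982 CPM in SOX9-mEGFP_budding, and the glucagon gene Gcg was at 0 in all 3 spheroid libraries. Their part in the fall of Reg4 was not tested.

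Against Halo-NLS, SOX9-mEGFP_spheroid had 1 member higher and 3 lower. In this comparison 15.3% of all genes were called higher and 12.1% lower. Reg3g was higher by 3.87 on the log2 scale (SE 0.58, adjusted p = 8.3e-05), with all 3 spheroid libraries above all controls. Reg4 fell by 8.04 (SE 0.71, adjusted p = 6.1e-07), Reg3a fell by 8.85 (SE 1.27, adjusted p = 0.00011) and Reg1 fell by 4.14 (SE 0.66, adjusted p = 0.00016), all on the log2 scale. Reg3b, at 0.056 (SE 0.51, adjusted p = 0.94), was not called. These 4 calls held when each library was left out in turn. The Halo-NLS libraries also entered the comparison that chose the family, so these p-values are not independent of that choice.

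In SOX9-Halo_spheroid all 5 tested members were near the limit of counting. Reg3a had 0 counts in all 3 libraries, Reg1 had 1, 0 and 0 counts, Reg3b had 0, 0 and 6, Reg4 had 1, 1 and 3, and Reg3g had 24, 21 and 29. A count of 0 allows up to 0.0805 to 0.106 CPM in these libraries, so Reg3g, at 0.847, 0.592 and 0.778 CPM, was the member measured best.

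Relative to SOX9-Halo_budding, Reg3a was at least 687-fold lower, with 3 counts allowed per library. Summed counts, scaled to library size, were 15653 times higher in budding than in spheroid libraries for Reg1 (95% interval 2809 to 618295), 610 times for Reg3b (280 to 1663) and 939 times for Reg4 (402 to 2893); the intervals are exact and cover counting error only. The Reg1 and Reg3b ratios rest on replicates 1 and 3 respectively, since the other SOX9-Halo_spheroid libraries had 0 counts. Reg3g was lower by a log2 fold change of -6.83 (SE 0.68). Of all genes, 14.7% were called lower and 10.5% higher in this comparison, which shares its spheroid libraries with the one that chose the family.

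Relative to Halo-NLS, which chose the family, Reg3a was at least 688-fold lower. The ratio of summed counts, control over spheroid, was 5511 for Reg1 (95% interval 989 to 217733), 39.6 for Reg3b (17.9 to 109) and 3100 for Reg4 (1328 to 9549). Reg3g stood at a log2 fold change of -3.36 (SE 0.61). Background shares were 15.3% of genes called lower and 13.6% higher, and nothing is read from the members' count there. The absorptive markers summed to 102 to 141 CPM in SOX9-Halo_spheroid against 6484 to 10819 CPM in Halo-NLS, and the goblet markers to 19.8 to 26.7 CPM against 2225 to 8065 CPM. Whether the REG genes moved with those cell types or apart from them was not tested.

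The 2 spheroid conditions differed in Reg3g, Reg1 and Reg3b. Reg3g was at 79.5 to 130 CPM in SOX9-mEGFP_spheroid and at 0.592 to 0.847 CPM in SOX9-Halo_spheroid, so that it changed by -7.24 on the log2 scale (SE 0.69). Reg1 (-7.83, SE 1.18) and Reg3b (-5.31, SE 0.75) were lower as well. Their ratios of summed counts, SOX9-mEGFP_spheroid over SOX9-Halo_spheroid, were 314 for Reg1 (95% interval 56.0 to 12439) and 41.3 for Reg3b (18.7 to 113). The fitted values move with the 1 library that holds the counts: without SOX9-Halo_spheroid replicate 3 Reg3b was at -9.34, and without replicate 1 Reg1 was at -9.73, with all remaining SOX9-Halo_spheroid libraries at 0. Reg4, low in both, gave a ratio of 11.8 (4.78 to 37.5) and a log2 fold change of -3.46 (SE 0.94). That change was -3.90 without SOX9-mEGFP_spheroid replicate 3 and -3.54 by DESeq2. Reg3a had 14 counts over the SOX9-mEGFP_spheroid libraries and none in the others. Of all genes, 9.57% were called lower in SOX9-Halo_spheroid and 3.59% higher. This comparison uses the SOX9-Halo_spheroid libraries on which the family was selected, so it is a description with no p-value for the members.

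For Reg3g, Reg1 and Reg3b, the lines did not change alike between the budding and the spheroid form. The difference of the 2 changes, SOX9-Halo minus SOX9-mEGFP, was -7.61 for Reg3g (SE 0.83), -12.00 for Reg1 (SE 1.31) and -9.21 for Reg3b (SE 0.92), on the log2 scale. It contains the fall in SOX9-Halo_spheroid on which the family was selected, so it is a description with no p-value. The fitted values of Reg1 and Reg3b rest on 1 and 6 counts in SOX9-Halo_spheroid and depend on the prior count. Without the library that held those counts they were -13.89 and -13.26. For Reg4 the difference was -2.55 (SE 1.11). For Reg3a, with 0 counts in SOX9-Halo_spheroid, it was -6.15 (SE 3.18). In all, 5.56% of genes were called lower by this test and 1.81% higher.

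**Figure D3:**
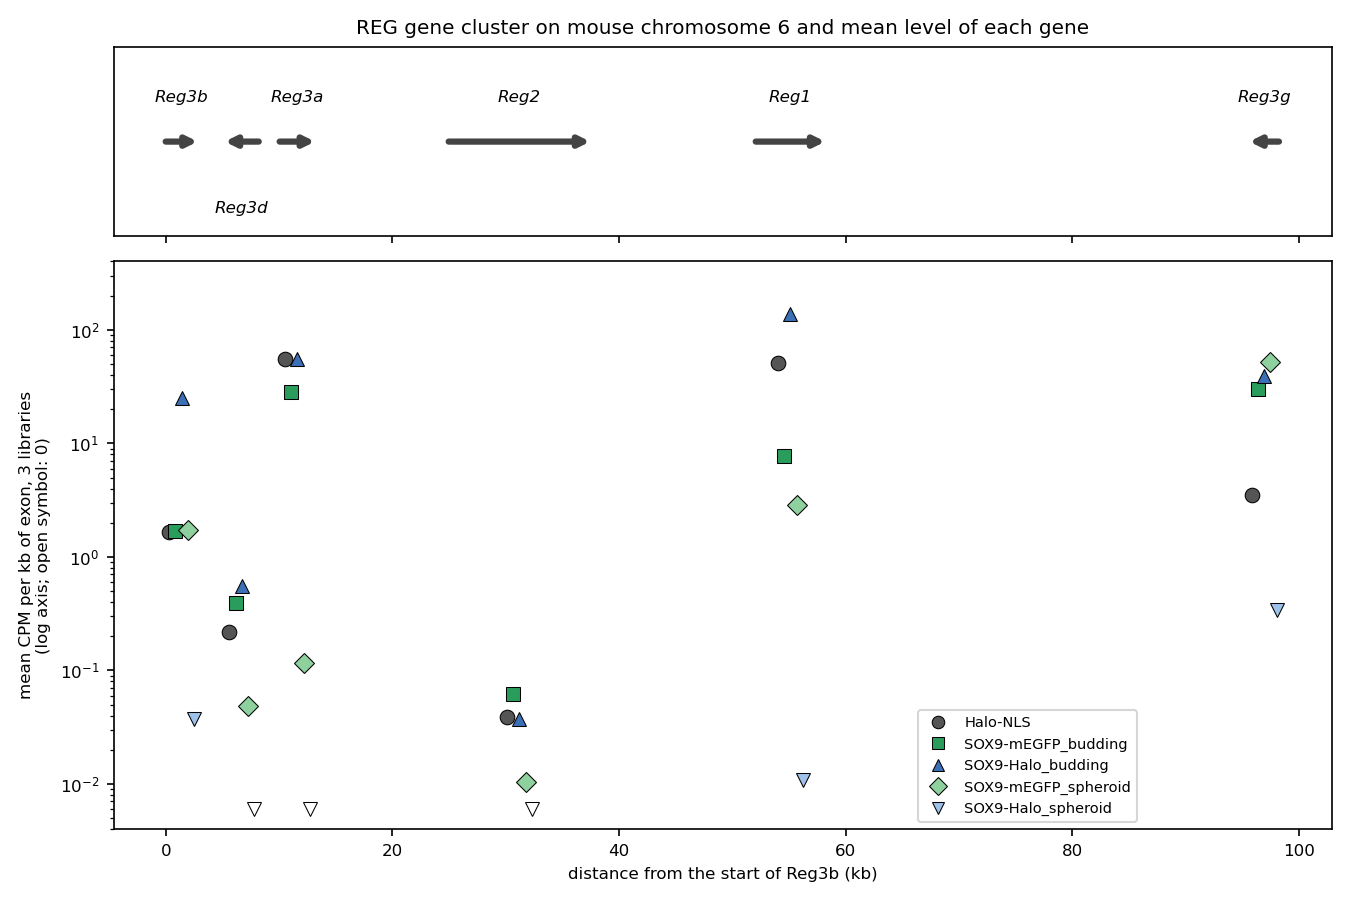
Upper panel: the 6 REG genes of the chromosome 6 cluster as arrows in the direction of transcription, by distance in kilobases from the start of Reg3b; lower panel: mean CPM per kilobase of exon of each gene in the 5 conditions (n = 3, log axis, symbols offset sideways, open symbols at 0). Reg3g, at the right end, keeps 51.8 CPM per kilobase in SOX9-mEGFP_spheroid while Reg3a, near the left end, is at 0.117.

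The tested genes of the cluster differed in how closely their levels went together, and whether position played a part was not tested. Reg3b and Reg3a lie at the same end with Reg3d between them, and Reg3g lies 37417 bases beyond Reg1, the widest gap in the cluster. Reg3d had at most 30 counts in any library and was not called in any comparison. Its mean CPM was 0.172 in Halo-NLS, 0.307 in SOX9-mEGFP_budding, 0.431 in SOX9-Halo_budding, 0.0377 in SOX9-mEGFP_spheroid and 0 in SOX9-Halo_spheroid. Over the 15 libraries, which share their conditions and a replicate number, the log2 CPM of Reg1 and Reg3a had r = 0.90 and that of Reg3a and Reg4 r = 0.95, while Reg3g had r = 0.41 with Reg3a and 0.40 with Reg4. Reg1 and Reg3b had r = 0.88, Reg3b and Reg3g r = 0.80, Reg3a and Reg3b r = 0.71, and Reg1 and Reg3g r = 0.64. With the condition means removed, r was 0.93 for Reg1 and Reg3a, 0.54 for Reg3a and Reg4, -0.09 for Reg1 and Reg3b and 0.37 for Reg3b and Reg3g. Reg3g then had r = 0.72 with Reg3a, 0.63 with Reg1 and 0.30 with Reg4. These correlations are descriptions.

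Among the other 11644 genes with a symbol and a mean of at least 1 CPM, those whose log2 CPM followed each member most closely over the 15 libraries were of different kinds. Reg1 was closest to the alcohol dehydrogenases Adh4 (r = 0.96), Adh1 (0.96) and Adh6a (0.95). Adh1 was at 513, 68.3, 242, 6.21 and 0.405 mean CPM, taking the control first, then the budding SOX9-mEGFP and SOX9-Halo lines, then their spheroids in that order. Reg3a was closest to Slc22a13b (0.99), the fatty acid oxidation gene Hadh (0.99) and the dopamine transporter gene Slc6a3 (0.99). Reg4 was closest to Rftn2 (0.99), Urad (0.99) and Chga, the chromogranin of enteroendocrine cells (0.99). Reg3g was closest to the flagellin sensor gene Naip5 (0.96), Rasgrf2 (0.96) and Sytl2 (0.96). Naip5 was at 19.1, 52.9, 43.6, 59.2 and 4.26 CPM in the same order of conditions, lowest in SOX9-Halo_spheroid as Reg3g was. Reg3b had the lowest r with its closest genes, Cyp1a1 (0.91), Slc6a7 (0.91) and Zfp612 (0.90). The 15 points behind each r are 5 conditions in triplicate.

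The receptors through which interleukin-22 and the interleukin-6 family reach STAT3 were examined as a list of 14 genes, all tested. In SOX9-mEGFP_spheroid against Halo-NLS 6 were called higher and none lower, and in SOX9-Halo_spheroid against Halo-NLS 5 were called higher and none lower, where 15.3% and 13.6% of all genes were called higher. The list's median log2 fold change was 0.57 and 0.68, beside 0.03 and -0.01 over all genes. Stat3 itself was at 85.6 ± 28.1 CPM in Halo-NLS, 124 ± 22.2 in SOX9-mEGFP_spheroid and 137 ± 4.87 in SOX9-Halo_spheroid, and was not called. Jak1, a kinase of these receptors, was called higher in SOX9-mEGFP_spheroid alone among the comparisons (1.02, adjusted p = 0.0044). Il6st, the shared signalling chain, and the receptor genes Osmr and Lifr, named after their values were seen, were called higher in both spheroid conditions against Halo-NLS. Osmr was at 0.111 ± 0.164 CPM in Halo-NLS, 15.0 ± 3.70 in SOX9-mEGFP_spheroid and 14.9 ± 4.70 in SOX9-Halo_spheroid. Osmr and Lifr were at most 0.140 mean CPM in every budding condition and passed the filter on low counts through the spheroids. A fall of either could hardly be called, so the counts are no support for a direction of the list. Il22ra1, the interleukin-22 receptor chain and likewise named after its values were seen, was at 30.8 ± 2.86 CPM in SOX9-mEGFP_spheroid, and its log2 fold change in SOX9-Halo_spheroid against it was -0.95 (adjusted p = 0.047, not called). None of the 14 was called between the spheroid conditions, where 3.59% of all genes were called higher and 9.57% lower, or between the budding conditions, where 0.29% and 0.165% were. At the budding stage, against Halo-NLS, 1 gene of the list was called higher in each line, Il6st, at 1.21 (adjusted p = 0.0049) and 1.61 (adjusted p = 0.00087).

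Toll-like receptor and MyD88 genes were listed as 17, of which 16 were tested. In SOX9-mEGFP_spheroid against Halo-NLS 7 were called higher and none lower, and in SOX9-Halo_spheroid 4 higher and 2 lower. Of all genes, 15.3% were called higher and 12.1% lower in the first and 13.6% and 15.3% in the second, and the list's medians were 0.60 and 0.39 on the log2 scale beside 0.03 and -0.01. The 2 called lower were the adaptor gene Ticam1 (-1.06, adjusted p = 0.0099) and the flagellin receptor gene Tlr5 (-2.63, adjusted p = 0.0029). Tlr1, Tlr2 and Tlr4, named after their values were seen, were at 0.0738, 0.142 and 0.0613 mean CPM in Halo-NLS. A fall from there could hardly be called, so the counts are no support for a direction of the list. Between the spheroid conditions none was called higher in SOX9-Halo_spheroid and 3 were called lower, beside 9.57% of all genes, with a list median of -0.45 beside -0.05. Myd88, named after its values were seen, was higher there without reaching the fold minimum, at 51.5 ± 3.99 CPM against 28.6 ± 1.66 (0.85, adjusted p = 0.0018). In the same comparison Rela was at 0.77 (adjusted p = 0.038) and Irak1 at -0.19 (adjusted p = 0.52), neither called. The most abundant of the list were Irak1, the receptor-associated kinase, at 78.3 ± 15.4 CPM in Halo-NLS and 122 ± 14.8 in SOX9-mEGFP_spheroid (log2 fold change 0.64, adjusted p = 0.013, not called), and Rela, a subunit of NF-kappaB, at 108 ± 21.3 and 79.3 ± 20.6 CPM (-0.44, adjusted p = 0.16).

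Genes known to be induced alongside REG3 in epithelia, a list of 17 of which 8 were tested, also differed between the spheroids. In SOX9-mEGFP_spheroid against SOX9-mEGFP_budding 6 of the 8 were called higher and 1 lower, beside 8.53% and 7.88% of all genes. In SOX9-Halo_spheroid against SOX9-mEGFP_spheroid 6 were called lower and none higher, beside 9.57% and 3.59%. In SOX9-Halo_spheroid against SOX9-Halo_budding 2 were called higher and 2 lower, beside 10.5% and 14.7%. The other 9 of the list did not pass the filter on low counts, and genes such as Lcn2 and Muc1, at most 0.127 mean CPM in every budding condition, passed it through the spheroids, so the counts are no support for a direction of the list. Pigr, the receptor that carries immunoglobulin A into the lumen, was the gene that fell in SOX9-mEGFP_spheroid against budding (-1.71, adjusted p = 0.0064), from 1524 ± 434 to 464 ± 167 CPM, and it was at 1.97 ± 1.22 CPM in SOX9-Halo_spheroid. Fut2, a fucosyltransferase of surface glycans, rose from 6.05 ± 1.18 to 139 ± 26.3 CPM (4.52, adjusted p = 2.8e-07), and at 51.8 ± 11.4 CPM in SOX9-Halo_spheroid it was lower than there (-1.42, adjusted p = 0.0025) yet above Halo-NLS (4.29, adjusted p = 1.2e-07). Lcn2, an antibacterial iron-chelator carrier, did not follow Reg3g, with 2.37 ± 0.943 CPM in SOX9-mEGFP_spheroid and 1.98 ± 1.59 in SOX9-Halo_spheroid (-0.27, adjusted p = 0.76). Il18, a cytokine gene, was at 3.67 ± 0.631 and 10.1 ± 0.678 CPM (1.46, adjusted p = 0.042, not called). Lcn2, Il18 and the genes of oxidant production Duox2, Duoxa2 and Nos2 were picked out after their values were seen. Duox2 was at 3.34 ± 2.05 CPM in SOX9-mEGFP_budding, 20.2 ± 11.5 in SOX9-mEGFP_spheroid and 0.0386 ± 0.0403 in SOX9-Halo_spheroid. Duoxa2 was at 0.683 ± 0.599, 9.37 ± 3.49 and 0.0183 ± 0.0159 CPM in the same conditions, and Nos2 at 1.01 ± 0.856, 8.38 ± 7.15 and 0.0541 ± 0.0530.

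**Figure D4:**
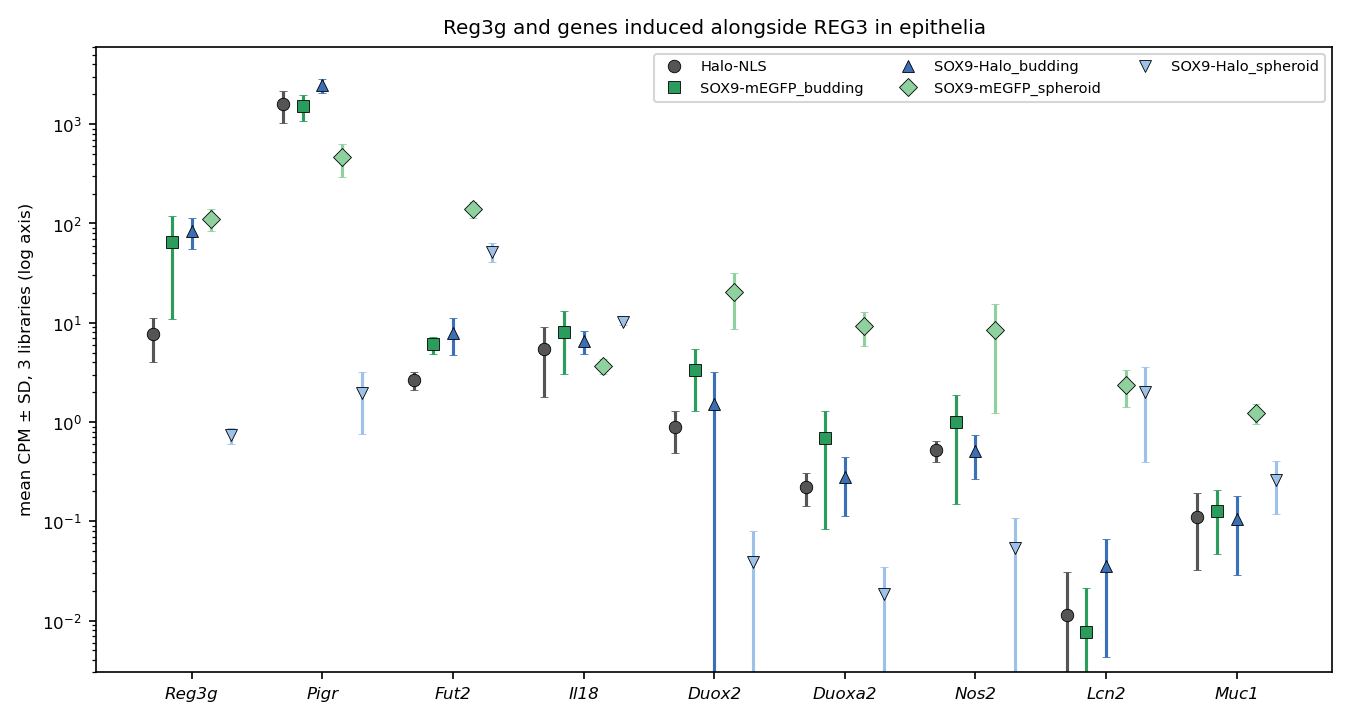
Mean CPM with SD (n = 3, log axis) of Reg3g and of the 8 tested genes known to be induced alongside REG3, in the 5 conditions; an error bar that reaches the lower axis belongs to a mean below its SD. Duox2, Duoxa2 and Nos2 are highest in SOX9-mEGFP_spheroid, at 20.2, 9.37 and 8.38 CPM, and below 0.1 CPM in SOX9-Halo_spheroid, where Reg3g is at 0.739 CPM.

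Other secreted antimicrobial products were a list of 17, of which 14 were tested. In SOX9-mEGFP_spheroid against SOX9-mEGFP_budding 10 were called lower and 1 higher, and in SOX9-Halo_spheroid against SOX9-Halo_budding 11 were called lower and none higher. Of all genes, 7.88% were called lower and 8.53% higher in the first and 14.7% and 10.5% in the second, and the list's medians were -7.01 and -8.55 on the log2 scale beside -0.04 and -0.08. Lyz1, the lysozyme of Paneth cells, was at 710 ± 96.4 CPM in Halo-NLS, 560 ± 101 in SOX9-mEGFP_budding, 381 ± 48.6 in SOX9-Halo_budding, 13.8 ± 8.31 in SOX9-mEGFP_spheroid and 0.505 ± 0.284 in SOX9-Halo_spheroid. Nlrp6, an inflammasome sensor rather than a secreted product, was the most abundant of the list over all libraries, at 403 ± 71.1 CPM in SOX9-mEGFP_spheroid, and fell by 4.34 on the log2 scale in SOX9-Halo_spheroid against it (adjusted p = 1.6e-06). Mmp7, the protease that matures alpha-defensins, was the 1 gene called higher in SOX9-mEGFP_spheroid, at 1246 ± 122 CPM against 32.5 ± 7.00 in budding (5.26, adjusted p = 1.5e-08). It was at 0.431 ± 0.0597 CPM in SOX9-Halo_spheroid. Mmp7 alone made up most of the Paneth marker sum of 1119 to 1358 CPM in SOX9-mEGFP_spheroid, in which the alpha-defensin genes Defa24, Defa30 and Defa17 were at 3.44, 0.462 and 0.128 CPM.

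Proteins proposed as receptors or partners of REG lectins were a list of 4, of which 3 were tested. Extl3, a glycosyltransferase proposed to bind REG proteins, was between 36.3 and 50.9 mean CPM in the 5 conditions and was not called in any comparison. Cd44, a hyaluronan receptor, was at 5.92 ± 0.713 CPM in Halo-NLS and 352 ± 91.9 in SOX9-mEGFP_spheroid (5.89, adjusted p = 1.1e-06), and at 122 ± 18.8 in SOX9-Halo_spheroid.

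Regulators of enterocyte and secretory expression were a list of 19, of which 18 were tested. None was called in either budding line against Halo-NLS or between the budding lines, where at most 2.49% of all genes were called in 1 direction, so a count of 0 is near the background. In SOX9-mEGFP_spheroid against SOX9-mEGFP_budding 8 were called lower and none higher, beside 7.88% and 8.53% of all genes, and in SOX9-Halo_spheroid against SOX9-mEGFP_spheroid 9 were called lower, beside 9.57%. Hnf4a, an enterocyte nuclear receptor, was at 887 ± 130, 457 ± 82.8 and 48.0 ± 10.6 CPM in SOX9-mEGFP_budding, SOX9-mEGFP_spheroid and SOX9-Halo_spheroid. Vdr, the vitamin D receptor, was at 471 ± 37.5, 14.8 ± 2.05 and 25.1 ± 6.78 CPM in the same conditions. Klf4 was the 1 gene of the list called higher in SOX9-mEGFP_spheroid against Halo-NLS (1.46, adjusted p = 0.0027).

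Markers of the pancreatic acinus and the stomach, where REG1 and REG4 are also made, were checked as well. Of 8 acinar markers 2 were tested, with fitted differences of opposite sign between the budding lines. Ctrb1, a chymotrypsinogen gene, had 24.1 ± 9.60 CPM in Halo-NLS, 1.24 ± 0.385 in SOX9-mEGFP_budding and 21.0 ± 17.4 in SOX9-Halo_budding (4.09 between the lines, adjusted p = 0.0066). Cela1, an elastase gene, was at 14.7 ± 6.11, 18.7 ± 4.83 and 9.23 ± 0.521 CPM in the same conditions (-1.02 between the lines, adjusted p = 0.15). The acinar genes Cela2a and Prss2 were at 0 in all 3 libraries of every condition. The gastric markers summed to 1.33 to 5.76 CPM in the 3 budding conditions, 35.8 to 43.1 in SOX9-mEGFP_spheroid and 130 to 291 in SOX9-Halo_spheroid. Pgc, a pepsinogen gene, made up nearly all of the last sum at 205 ± 78.5 CPM, while Tff2 was at 2.35, Gkn1 at 1.27 and Gkn2 at 0.148 CPM, and Muc5ac and Cblif had 0 counts there. In these libraries Reg4 was at 0.0282 to 0.0805 CPM. Tuft cell markers summed to 1.92 to 18.1 CPM in all libraries and crypt base stem cell markers to 89.1 to 1049 CPM. None of these lists was tested against the REG genes.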

How the data were processed

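Counts of uniquely aligned reads per gene were deposited by the authors as 1 HTSeq file per library (cutadapt 4.5, STAR to mm39, HTSeq 2.0.2, union mode, without strand), and no normalization was applied to them before deposit. Rows that name no gene held 9.65% to 13.6% of reads (more than 1 gene) and 1.83% to 6.09% (no gene) and were left out. HTSeq was run without strand, so overlapping transcripts on opposite strands are not separated. Groups and replicate numbers were taken from the sample titles. Genes were filtered with filterByExpr, scaled by TMM and fitted with edgeR 4.0.16 (quasi-likelihood test, R 4.3.3) in 1 model of 15 libraries with a coefficient per condition, and p-values were adjusted by Benjamini-Hochberg over the 17560 genes tested. CPM used the reads on tested genes times the TMM factor, and lengths were merged exons of GENCODE M39. The script was tested on simulated counts. Alternatives were RLE scaling, library sizes alone, no filter, DESeq2 1.42.0, limma-voom 3.58.1, a fit of only the libraries compared, a replicate block, other thresholds, longest transcripts and each library left out. Conditions counted as paired where all 3 same-numbered pairs of libraries passed a minimum r of their deviations from condition means. That held in 1 of 10 pairs of conditions, SOX9-Halo_budding and SOX9-Halo_spheroid (0.28, 0.16 and 0.24). Some same-numbered budding libraries also went together: r was 0.36, 0.65 and 0.06 for Halo-NLS with SOX9-Halo_budding. It was 0.04, 0.29 and 0.62 for SOX9-mEGFP_budding with SOX9-Halo_budding, and -0.01, 0.28 and 0.28 for Halo-NLS with SOX9-mEGFP_budding. The main model had no block for this. The members and the gene lists were chosen with earlier results of these data known. All members, Sox9, the 3 genes most like each tested member, and from each list the 2 most abundant genes and those called against its direction were named, and exceptions are marked; 1 result for a listed regulator is not reported here. Upstream bases came from RefSeq tables, aligned with Biopython 1.88. Intervals and the allowance of 3 counts for a count of 0 cover counting error only.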

Additional observations from a re-analysis of the deposited data

Results flagged for a closer look

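8 results were marked because 2 groups differed under the same contrast by a test of the difference itself. In the change from budding to spheroid, the SOX9-Halo line minus the SOX9-mEGFP line gave -12.00 for Reg1, -9.21 for Reg3b and -7.61 for Reg3g on the log2 scale. In budding organoids the change against Halo-NLS differed between the lines by 4.16 for Reg1 and 3.90 for Reg3b. In spheroids it differed by -7.83 for Reg1, -5.31 for Reg3b and -7.24 for Reg3g. The 6 of these that include SOX9-Halo_spheroid rest on libraries used to select the family, in which Reg1 and Reg3b had 1 and 6 counts in all, and are not independent of that choice. Halo-NLS cancels in the budding and spheroid differences, so these repeat the direct comparisons of the lines given above and are no further results. In the edgeR fit of only the libraries compared, neither budding difference was called (adjusted p = 0.097 for Reg1 and 0.028 for Reg3b). In the budding and spheroid contrasts the libraries of the lines did not overlap. No group was large enough for a check of single outlying libraries.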

How the results depend on the processing

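Of 408 log2 fold changes of members under alternatives other than leaving out a library, 380 kept their direction and their side of the threshold, and of 300 with a library left out 276 did. Calls in the budding comparisons were the least stable. In SOX9-mEGFP_budding against Halo-NLS (1 member called), 2 were called with no filter, with DESeq2, with the replicate block in the fit of all libraries and at an adjusted p of 0.05, Reg1 being added each time, and 0 with only the libraries compared; leaving out a library gave 0 to 1. In SOX9-Halo_budding against Halo-NLS (2 called), 4 were called with no filter and 0 with only the libraries compared, and 1 to 2 with a library left out. The replicate block in the fit of all libraries also called Reg4 in SOX9-Halo_budding against Halo-NLS (-1.84, adjusted p = 0.0049) and in SOX9-Halo_spheroid against SOX9-mEGFP_spheroid (-3.33). Replicate number paired the conditions of neither comparison, nor SOX9-mEGFP_budding with Halo-NLS. In SOX9-Halo_budding against SOX9-mEGFP_budding (2 called), 0 were called with only the libraries compared and 0 to 2 with a library left out. With no filter, 5 were called in SOX9-Halo_spheroid against SOX9-mEGFP_spheroid and in the difference between the lines, where 3 were called. Calls in comparisons that use SOX9-Halo_spheroid describe the fits and are no test of the members, since the family was selected on it. Counts over all genes fell with only the libraries compared, to 65 higher and 38 lower against 350 and 134 in SOX9-mEGFP_budding against Halo-NLS, to 5 and 0 against 438 and 221 in SOX9-Halo_budding against Halo-NLS, and to 17 and 2 against 51 and 29 between the budding lines. Library sizes alone moved the median of all genes to between 0.27 and 0.31 in the comparisons with Halo-NLS. Calls became 620 higher and 108 lower in SOX9-mEGFP_budding, 1068 and 109 in SOX9-Halo_budding, 3333 and 1500 against 2687 and 2132 in SOX9-mEGFP_spheroid, and 3102 and 2229 against 2391 and 2678 in SOX9-Halo_spheroid.

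Reversals were confined to members that were not called. Reg3b in SOX9-mEGFP_budding against Halo-NLS was -0.044 with limma-voom and -0.17 to 0.34 with a library left out. Reg3a in SOX9-Halo_budding against Halo-NLS was 0.26 with library sizes alone, 0.032 with no filter and -0.55 to 0.41 with a library left out. Reg3b in SOX9-mEGFP_spheroid against SOX9-mEGFP_budding was -0.011 with RLE scaling, -0.014 with DESeq2, -0.026 with the replicate block, -0.012 with only the libraries compared and -0.34 to 0.23 with a library left out. Leaving out a library also gave -0.066 to 0.31 for Reg3b in SOX9-mEGFP_spheroid against Halo-NLS and -0.12 to 1.24 for Reg3g between the budding lines. In the 1 paired comparison, a replicate block within the SOX9-Halo line, chosen after seeing the data, left 5 members called. That count is likewise no test of the members. The cause of these shifts was not tested.

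Depth limits SOX9-Halo_spheroid, where 5 of the 6 members had at most 6 counts in any library and where 0 counts allow up to 0.106 CPM. No protein sequences were used here.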
